A study of Mus musculus with 6 samples.

Results

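HOX genes encode homeodomain transcription factors, and every row of the count table whose symbol was Hox, a cluster letter from a to d and a paralog number was taken as a member: 39 of 23420 rows. RNA sequencing measured them in 6 libraries of E1A;HrasG12V mouse embryonic fibroblasts, cells transformed with E1A of adenovirus and the active HrasG12V allele of Ras. The cells came as 3 lines of mixed 129/Sv-C57BL/6 strain, and each line gave 1 library with each guide RNA. In the sgp53 group the cells had the guide sgp53(1) against the p53 gene, and the labels call them p53 null in lines 1 and 3 and functionally inactive for p53 in line 2. In the sgNTC group the cells had a guide that targets no gene and are labelled p53 wild-type. Cells of both groups thus share E1A and HrasG12V, and both were kept for 24 h in medium with 10% fetal calf serum and at 5% oxygen before harvest. The labels do not say whether a line is a clone or a pool, whether the lines came from separate embryos, or from which region of the embryo the fibroblasts were taken. In the sample descriptions lines 2 and 3 share an identifying number that line 1 does not have, and what that number stands for is not stated.

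HOX genes set the identity of body segments along the head-to-tail axis, and those of high paralog number also pattern the limbs and the genital tract. Within a cluster the genes lie in the order of the regions that use them, from low paralog numbers at the head end to high numbers at the tail end. Polycomb proteins keep the clusters silent where they are not used, Trithorax proteins and retinoic acid receptors maintain or start their transcription, and HOX proteins bind DNA with TALE homeodomain partners of the PBX and MEIS families. Human skin fibroblasts in culture are known to keep a HOX pattern that tells the body site they came from.

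In the GENCODE annotation of GRCm38, the assembly that mm10 denotes, HOXA held 11 members at chr6:52155590-52260880 on the minus strand. HOXB held 10 at chr11:96194316-96368256, HOXC held 9 at chr15:102921103-103036852 and HOXD held 9 at chr2:74668310-74765142, all 3 on the plus strand. The sequences below are the 250 bases before the annotated starts of Hoxd11, Hoxd10 and Hoxa11, shown because these genes had some of the widest differences between sgp53 and sgNTC libraries. They were taken from RefSeq promoters of GRCm38.p6, and capitals mark CpG dinucleotides, the sites of DNA methylation.
Hoxd11 (chr2:74682073-74682322, plus strand): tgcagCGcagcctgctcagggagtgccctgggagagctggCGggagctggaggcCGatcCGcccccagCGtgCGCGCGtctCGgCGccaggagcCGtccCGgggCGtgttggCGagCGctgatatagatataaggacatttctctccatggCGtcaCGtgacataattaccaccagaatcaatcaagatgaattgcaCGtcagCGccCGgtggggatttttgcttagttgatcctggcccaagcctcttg
Hoxd10 (chr2:74691641-74691890, plus strand): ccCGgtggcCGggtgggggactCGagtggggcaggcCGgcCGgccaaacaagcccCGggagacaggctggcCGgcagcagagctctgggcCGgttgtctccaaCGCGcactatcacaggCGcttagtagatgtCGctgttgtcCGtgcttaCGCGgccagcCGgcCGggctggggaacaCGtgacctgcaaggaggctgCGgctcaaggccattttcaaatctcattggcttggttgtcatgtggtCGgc
Hoxa11 (chr6:52245811-52246060, minus strand): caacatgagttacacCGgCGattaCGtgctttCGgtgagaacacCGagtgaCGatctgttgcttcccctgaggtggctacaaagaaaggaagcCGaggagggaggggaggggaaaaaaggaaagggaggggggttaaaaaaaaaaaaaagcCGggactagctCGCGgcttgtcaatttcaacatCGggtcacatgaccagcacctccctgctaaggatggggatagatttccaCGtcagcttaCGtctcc
These windows held 20, 20 and 13 CpG dinucleotides in the order printed, and another annotated start of Hoxd11 had 2. The table had 24 such windows for 22 of the HOX genes, with a median of 12.5 CpG dinucleotides against 6.0 over all 32851 windows in it. The consensus half-site of p53, which reads alike on both strands, matched in 3 of the 24 HOX windows (12.5%, those of Hoxa11, Hoxd10 and Hoxd4) and in 7.1% of all windows. The PBX-HOX motif TGATNNAT, searched on both strands, matched in 4 HOX windows (16.7%), among them that of Hoxd11, and in 7.7% of all windows. The 2 motifs were counted separately, with no regard to overlap.

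The clusters also hold microRNA genes, whose products pair with HOX messages. The mature sequence of miR-196a is shown with its seed in capitals, beside the site in the Hoxb8 message with its paired bases in capitals.
mmu-miR-196a-5p: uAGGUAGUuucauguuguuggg
Hoxb8 site: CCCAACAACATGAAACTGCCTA
The site began 418 bases after the stop codon of Hoxb8 and paired with the microRNA over its 22 bases, 21 as Watson-Crick pairs and 1 as a G-U pair. The RNA of these libraries was not selected for small RNA, and no mature microRNA was measured.

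Library totals lay between 29564516 and 35860866 counts in the sgp53 libraries and between 27503577 and 32536641 in the sgNTC libraries. Trp53, the targeted gene, had 71.1, 72.0 and 113 CPM (counts scaled to the TMM-normalised library total) in sgp53 lines 1, 2 and 3, against 206, 277 and 253 CPM in sgNTC lines 1, 2 and 3. Its p53 target Cdkn1a had 73.8 to 101 CPM in sgp53 libraries and 647 to 732 CPM in sgNTC libraries, so both genes set the groups apart as labelled. Of the fibroblast markers, Vim was between 2501 and 3353 CPM in all 6 libraries, Lum had no count outside sgp53 line 3, and Dcn was under 1 CPM outside sgp53 line 3. Over 13 fibroblast markers the summed level was 7096 to 10100 CPM in sgp53 libraries and 5687 to 6699 CPM in sgNTC libraries. Most of each sum came from Vim, whose groups overlapped, and Fn1. Fn1 had 3886 to 4415 CPM in sgp53 and 2219 to 3414 CPM in sgNTC libraries. Of 12 markers tested, 3 (Col1a1, Col1a2 and Col3a1) rose in sgp53, beside 2.76% of all genes tested. Over 6 epithelial markers the sum was 88.7 to 132 CPM in sgp53 libraries and 259 to 646 CPM in sgNTC libraries, and Krt5 was at 0. Krt18 gave the largest part of each sum, at 47.4 to 93.3 CPM in sgp53 and 184.5 to 542 CPM in sgNTC libraries. Epcam was lower in every sgp53 library (edgeR adjusted p = 0.0528), while the groups overlapped for Cdh1 and Krt8. Of 4 tested epithelial genes 1 (Krt18) fell, beside 3.69% of all genes tested, with an edgeR adjusted p of 0.0295, or 0.0534 with line as a block. The sgp53 library of line 3 stood apart from the other 5 libraries. Rn45s, the ribosomal RNA precursor, had 3336 CPM in it and 636 to 863 CPM in the others. The fibroblast markers Thy1, Pdgfra and S100a4 had 53.9, 131 and 99.4 CPM in it, against at most 4.30, 29.7 and 15.8 CPM in the others. The part of these differences in the HOX results was not tested.

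All 6 libraries had a broad HOX code that took in each cluster and reached from paralog group 1 to 13. At 1 CPM or more, the number of HOX genes was 32, 33 and 33 in sgp53 lines 1, 2 and 3 and 29, 30 and 33 in sgNTC lines 1, 2 and 3. The threshold was passed by 27 members in all 6 libraries and by 8 in some of them (Hoxa2, Hoxa13, Hoxb13, Hoxc11, Hoxc12, Hoxd3, Hoxd10 and Hoxd11). Another 4 (Hoxb1, Hoxc13, Hoxd1 and Hoxd12) passed it in none. Thus 36 members had counts enough to be tested, and Hoxb1, Hoxd1 and Hoxd12 did not.

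Per transcript length, as CPM per kilobase (RPKM), Hoxb9 was the most abundant HOX message with a mean of 33.9 RPKM over the 6 libraries. After it came Hoxa10 with 17.7 RPKM, Hoxb2 with 15.2 RPKM, Hoxc6 with 14.7 RPKM and Hoxa5 with 12.3 RPKM. Hoxb9 had 23.1 to 53.7 RPKM in sgp53 libraries and 15.7 to 50.6 RPKM in sgNTC libraries, and Hoxa10 had 19.6 to 22.7 RPKM in sgp53 libraries and 7.88 to 17.7 RPKM in sgNTC libraries. Their ranges were apart in sgp53 and overlapped in sgNTC libraries, while Hoxa10 and Hoxb2 overlapped in both. The levels did not run evenly along a cluster. In HOXD, Hoxd13 had a mean of 8.04 RPKM and Hoxd8 6.52 RPKM, while Hoxd10 had 0.785, Hoxd11 2.23 and Hoxd12 0.0321 RPKM between them. In HOXC the level dropped after Hoxc10, with a mean of 9.25 RPKM, to 0.420 RPKM for Hoxc11, 0.712 RPKM for Hoxc12 and 0.210 RPKM for Hoxc13.

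**Figure D1:**
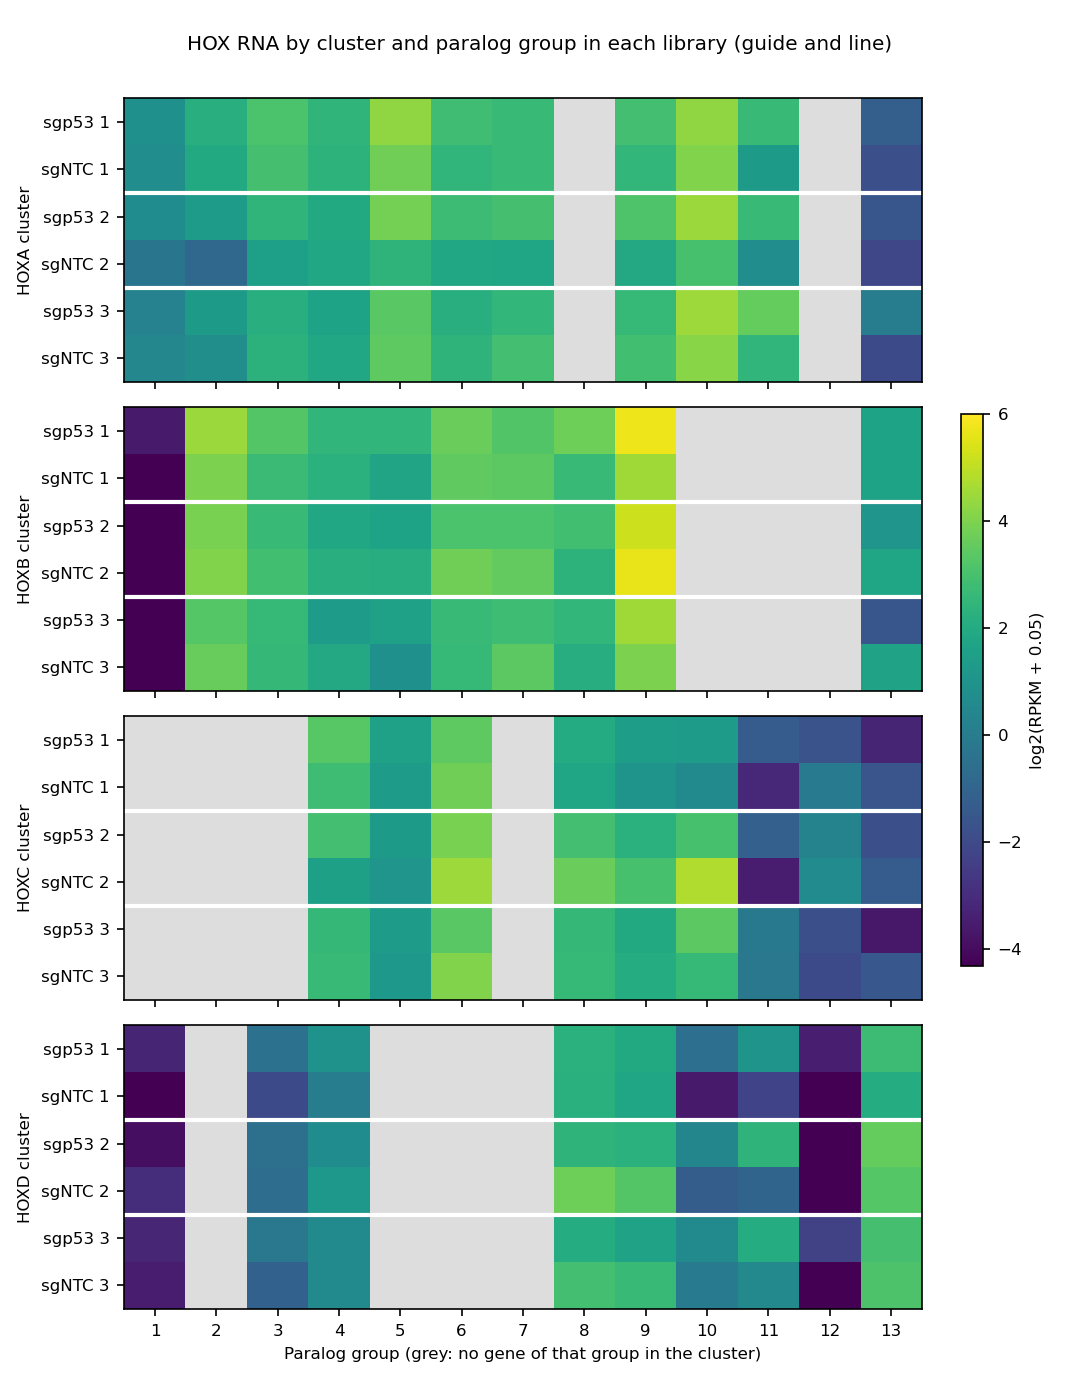
Levels of the 39 HOX genes as log2(RPKM + 0.05), by cluster (panels), paralog group (columns) and library (rows, the sgp53 library of each line above its sgNTC library). Hoxb9 is the brightest gene, Hoxb1, Hoxd1 and Hoxd12 are the darkest, and in the sgNTC library of line 2 HOXA is dim while Hoxc10 is bright.

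HOXA and HOXB together gave most of the HOX RNA, except that HOXA was low in 1 library. HOXA made up 31.5%, 31.9% and 36.7% of summed HOX RPKM in sgp53 lines 1, 2 and 3, against 34.8%, 12.6% and 33.3% in sgNTC lines 1, 2 and 3. The low value belongs to the sgNTC library of line 2, whose HOXC share of 29.2% was the highest of the 6. HOXC had 12.2%, 19.1% and 20.0% in sgp53 lines 1, 2 and 3, and 15.6% and 21.4% in sgNTC lines 1 and 3. The HOXD share was lowest in line 1, with 7.49% in its sgp53 and 6.90% in its sgNTC library, and 11.6% to 12.2% in the other sgp53 and 13.4% to 13.6% in the other sgNTC libraries. In absolute terms the HOX total was 273, 248 and 199 RPKM in sgp53 lines 1, 2 and 3, against 197, 262 and 197 RPKM in sgNTC lines 1, 2 and 3. In bulk RNA, fewer cells that use a gene and less of its RNA per cell cannot be told apart.

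**Figure D2:**
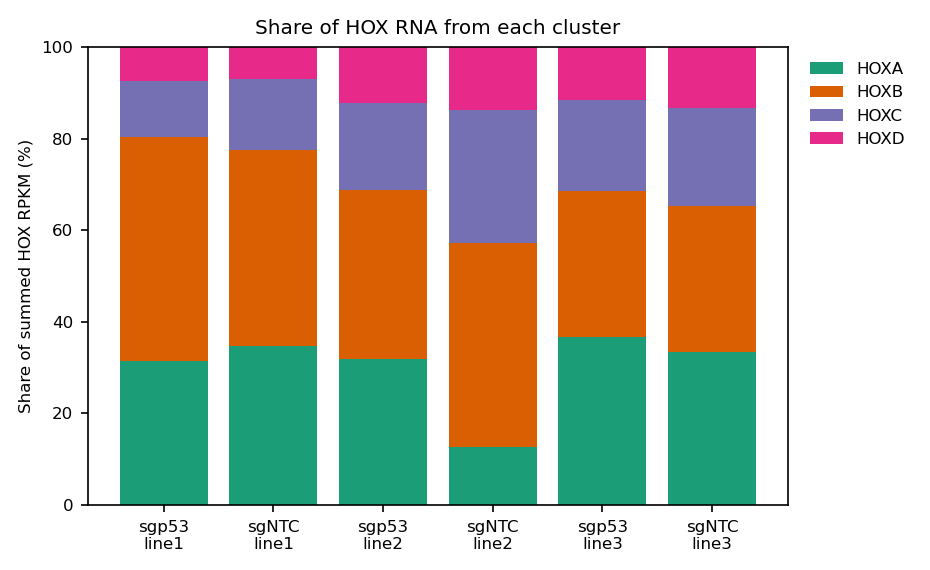
Share of summed HOX RPKM (vertical axis, %) that each cluster gave in each library, the sgp53 library left of the sgNTC library of each line. HOXA takes 12.6% in sgNTC line 2 and 31.5% to 36.7% in the other 5 libraries.

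The HOXA genes were low together in that library. The sgNTC library of line 2 had the lowest level of the 6 for 10 of the 11 HOXA genes, for none of the 7 tested HOXD genes and for none of the 9 tested HOXB genes. It had the highest level for 6 of the 9 HOXC genes, 3 HOXD genes and 3 HOXB genes, and the lowest for the other 3 HOXC genes (Hoxc4, Hoxc5 and Hoxc11). Hoxa3, which is needed for the thymus and parathyroid, had 21.6, 13.8 and 11.4 CPM in sgp53 lines 1, 2 and 3, against 20.2, 7.25 and 12.9 CPM in sgNTC lines 1, 2 and 3. Line 1 was the highest with both guides. Hoxa4 had 8.53, 6.00 and 4.98 CPM in sgp53 lines 1, 2 and 3, against 7.96, 5.69 and 5.52 CPM in sgNTC lines 1, 2 and 3. It was the HOXA gene that did not have its lowest level in sgNTC line 2, and the 2 libraries of each line stood apart from those of the other lines. The other HOXA genes of paralog groups 1 to 9 each had their lowest level in sgNTC line 2, with Hoxa5, a gene of lung development, at 19.3 to 36.1 CPM in sgp53 libraries and at 9.85 to 25.7 CPM in sgNTC libraries.

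In HOXB, line 1 had the highest mean log2 CPM for 7 of the 9 tested genes. Its sgp53 library was the highest sgp53 library for all 9. Among sgNTC libraries line 1 was the highest only for Hoxb4 and Hoxb8, and line 2 was the highest for the rest. Hoxb9 had 138, 95.8 and 59.4 CPM in sgp53 lines 1, 2 and 3, against 60.0, 130 and 40.3 CPM in sgNTC lines 1, 2 and 3. Hoxb2, a gene of hindbrain patterning, had 35.4, 24.5 and 15.5 CPM in sgp53 lines 1, 2 and 3, against 25.6, 27.1 and 19.8 CPM in sgNTC lines 1, 2 and 3. Line 3 was thus the lowest of the lines for both genes, with either guide. Hoxb6 had 24.5, 16.5 and 12.1 CPM in sgp53 lines 1, 2 and 3, against 21.8, 26.6 and 11.7 CPM in sgNTC lines 1, 2 and 3. Here too line 3 was the lowest with either guide, and line 1 was the highest only among sgp53 libraries. Hoxb1, which marks the hindbrain, had 0.0683 CPM in sgp53 line 1 and no count in the other 5 libraries, where 3 counts would be 0.0834 to 0.109 CPM. Hoxb13, a gene of the tail bud and prostate at the far end of the cluster, had 6.79, 4.50 and 0.631 CPM in sgp53 lines 1, 2 and 3, against 6.85, 7.57 and 6.70 CPM in sgNTC lines 1, 2 and 3. Only the sgp53 library of line 3 lay far from the rest.

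The HOXC genes of the trunk showed the clearest order of the lines. Hoxc8, which shapes thoracic vertebrae, had 7.51, 14.2 and 10.8 CPM in sgp53 lines 1, 2 and 3, against 6.16, 23.2 and 11.1 CPM in sgNTC lines 1, 2 and 3. Hoxc9, which bounds the limb-level motor neurons of the spinal cord, had 6.21, 11.2 and 9.05 CPM in sgp53 lines 1, 2 and 3, against 4.66, 18.9 and 9.72 CPM in sgNTC lines 1, 2 and 3. For both genes line 2 was the highest, line 3 lay between and line 1 was the lowest, with each guide. Hoxc6 had 16.9, 24.1 and 15.9 CPM in sgp53 lines 1, 2 and 3, against 21.4, 35.0 and 25.7 CPM in sgNTC lines 1, 2 and 3. Hoxc12 was near the limit of detection, with 0.273, 1.22 and 0.245 CPM in sgp53 lines 1, 2 and 3, against 0.901, 1.56 and 0.203 CPM in sgNTC lines 1, 2 and 3. Both were highest in line 2 with each guide. Hoxc10, a gene of the lumbar region and hindlimb, had 4.88, 15.2 and 20.1 CPM in sgp53 lines 1, 2 and 3, against 2.73, 51.6 and 11.3 CPM in sgNTC lines 1, 2 and 3. It was lowest in line 1 with both guides, and its highest and lowest libraries differed 18.9-fold.

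In HOXD, line 1 was the lowest of the lines with each guide for Hoxd10, Hoxd11 and Hoxd13. Hoxd13, which patterns the digits, had 16.5, 28.8 and 19.2 CPM in sgp53 lines 1, 2 and 3, against 10.4, 23.7 and 21.3 CPM in sgNTC lines 1, 2 and 3. Line 2 was the highest and line 1 the lowest, and no library of one line lay among those of another. Hoxd1 had 0.102, 0.0278 and 0.105 CPM in sgp53 lines 1, 2 and 3, against 0, 0.145 and 0.0677 CPM in sgNTC lines 1, 2 and 3. Hoxd12 had 0.102, 0 and 0.386 CPM in sgp53 lines 1, 2 and 3, and no count in the 3 sgNTC libraries. These levels of both genes come from a few counts.

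Between lines, none of the 36 HOX genes tested passed an edgeR quasi-likelihood F-test of line at a Benjamini-Hochberg adjusted p under 0.05, and none of all 13335 genes tested did (0%). At an unadjusted p under 0.05 the count was 12 HOX genes (33.3%), beside 475 of all genes (3.56%). These 12 were Hoxa3, Hoxa4, Hoxa11, Hoxb2, Hoxb6, Hoxb8, Hoxc6, Hoxc8, Hoxc9, Hoxc10, Hoxc12 and Hoxd13, and each had an adjusted p of 0.967. DESeq2 called 3 (Hoxa11, Hoxc8 and Hoxc10), beside 79 of 12860 genes (0.614%), and limma-voom called 0 of all genes. There were 2 libraries per line, so these p-values rest on the spread between the sgp53 and the sgNTC library of a line, with 2 residual degrees of freedom.

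HOX genes varied more over the libraries than most genes. The SD of log2 CPM over the 6 libraries had a median of 0.58 for the HOX genes tested and of 0.18 for all genes tested. The distances between the libraries of a line overlapped those between libraries that share a guide. The median absolute log2 difference over HOX genes was 0.38 to 0.72 within a line, 0.42 to 0.71 between sgp53 libraries and 0.53 to 0.84 between sgNTC libraries. Between libraries that shared neither line nor guide it was 0.34 to 1.03. The closest pair of all, sgp53 line 2 with sgNTC line 3, was among these. Over all genes tested the difference was 0.19 to 0.26 within a line, 0.12 to 0.18 between sgp53 libraries and 0.13 to 0.18 between sgNTC libraries. Where neither line nor guide was shared it was 0.17 to 0.29. The libraries of a line nevertheless tended to leave their group's mean in the same HOX genes. The deviations of the sgp53 and the sgNTC library from their group means correlated over the 36 genes with r = 0.69 in line 1, 0.40 in line 2 and 0.51 in line 3. Neighbouring genes share the library and the cluster, so these genes are not independent points.

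In the comparison of sgp53 with sgNTC, no HOX gene passed the edgeR test at an adjusted p under 0.05, while 6.45% of all 13044 genes tested did. At an unadjusted p under 0.05 the count was 4 of 36 HOX genes (11.1%: Hoxa11, Hoxa13, Hoxb7 and Hoxd11), beside 29% of all genes. With the line as a block, which compares the libraries of each line, 1 HOX gene was called (Hoxa11, which rose in sgp53), beside 2.38% of all genes in either direction and 0.966% upward. Blocked fits that left out line 1, 2 or 3 called no HOX gene, and they called 126, 0 and 13 of all genes in that order. At an unadjusted p under 0.05 the blocked fit had 7 of 36 HOX genes (19.4%), beside 26.1% of all genes. DESeq2 called 2 (Hoxa11 and Hoxd11), beside 17.2% of all genes, and limma-voom called none, beside 5.35%. The sgp53 libraries did not overlap the sgNTC libraries for 7 of the 36 (19.4%), beside 36.8% of all genes. They all lay above the sgNTC libraries for 5 (13.9%), beside 17.8% of all genes, and all below for 2 (5.56%), beside 19% of all genes. An exact permutation test of 3 libraries against 3 cannot go below 0.1 for a single gene.

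**Figure D3:**
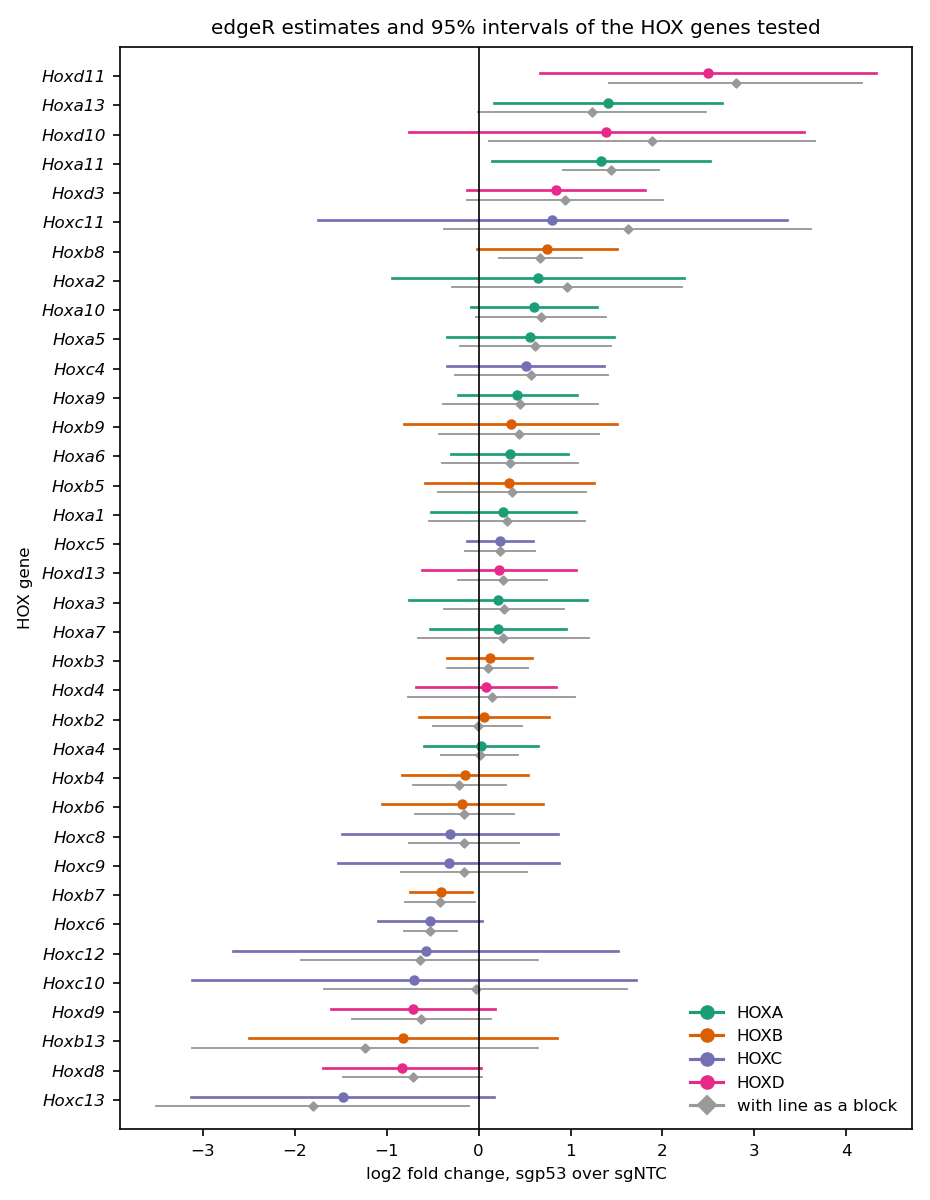
Log2 fold change of sgp53 over sgNTC (horizontal axis) with its 95% interval for the 36 HOX genes tested, coloured by cluster, and in grey the estimate with line as a block. Hoxd11 has the largest positive estimate at 2.50 and Hoxc13 the largest negative one at -1.48, and most intervals include 0.

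The highest positive estimates were those of Hoxd11, Hoxa13, Hoxd10 and Hoxa11. Hoxd11, which with Hoxa11 shapes the forearm and the kidney, had 2.18, 5.81 and 4.67 CPM in sgp53 lines 1, 2 and 3, against 0.180, 0.507 and 1.56 CPM in sgNTC lines 1, 2 and 3. Each sgp53 library lay above every sgNTC library. The means were 4.22 ± 1.85 CPM in sgp53 and 0.748 ± 0.719 CPM in sgNTC (SD, n = 3 each). On the log2 scale the fold change was 2.50 (SE 0.76), with an adjusted p of 0.0942 in edgeR and of 0.008 in DESeq2. Hoxa11 had 14.0, 14.0 and 27.01 CPM in sgp53 lines 1, 2 and 3, against 5.59, 3.73 and 12.5 CPM in sgNTC lines 1, 2 and 3. The groups did not overlap, and line 3 was the highest line with both guides. Its means were 18.3 ± 7.51 CPM in sgp53 and 7.26 ± 4.60 CPM in sgNTC (SD, n = 3 each). The unblocked log2 fold change was 1.34 (SE 0.49, edgeR adjusted p = 0.137). With line as a block the log2 fold change was 1.44 (SE 0.20, edgeR adjusted p = 0.0478), and DESeq2 without the block gave an adjusted p of 0.0257. Leaving out the sgp53 library of line 3 lowered the unblocked estimate to 0.95, and leaving out the sgNTC library of line 3 raised it to 1.97.

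Reads of Hoxa11 may include those of a transcript on the other strand. In the annotation, 800 exon bases of Hoxa11 lie opposite those of Hoxa11os, and the table has a row Hoxa11as. That row had 10.6, 11.7 and 18.1 CPM in sgp53 lines 1, 2 and 3, against 5.62, 5.00 and 12.2 CPM in sgNTC lines 1, 2 and 3, with overlapping groups. Without the strand setting of the counting, which no source used here gives, the 2 transcripts cannot be told apart. In all, 9 HOX genes share exon bases with an antisense gene and 7 with a gene on their own strand, among them Hoxd10 and Hoxd11, each with Gm28309 on its own strand.

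The third group 11 gene, Hoxc11, had 0.717, 0.806 and 1.72 CPM in sgp53 lines 1, 2 and 3, against 0.120, 0.0725 and 1.66 CPM in sgNTC lines 1, 2 and 3. Its groups overlapped through sgNTC line 3, though the sgp53 library was the higher one in each line. Summed over the 3 genes, paralog group 11 had 16.9, 20.6 and 33.4 CPM in sgp53 lines 1, 2 and 3, against 5.89, 4.31 and 15.7 CPM in sgNTC lines 1, 2 and 3. Each sgp53 sum was above every sgNTC sum. Hoxa11, whose groups were apart by itself, made up most of each sum, so the sums add little to its own values.

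Hoxd10, which specifies lumbar motor neurons, had 1.16, 2.36 and 2.67 CPM in sgp53 lines 1, 2 and 3, against 0.0601, 0.652 and 1.66 CPM in sgNTC lines 1, 2 and 3. The groups overlapped, and the gap within a line was widest in line 1, where the sgNTC library had few counts. The log2 fold change was 1.39 (SE 0.89, edgeR adjusted p = 0.346), and it was 0.83 without the sgNTC library of line 1 and 2.56 without that of line 3. Hoxa13, which patterns the hand and foot, had 0.921, 0.695 and 2.35 CPM in sgp53 lines 1, 2 and 3, against 0.571, 0.435 and 0.474 CPM in sgNTC lines 1, 2 and 3. The groups did not overlap, but the sgp53 library of line 3 stood well above the other 2, and without it the log2 fold change was 0.70 instead of 1.41 (SE 0.52, edgeR adjusted p = 0.136). Hoxa10, which is needed in the uterus, had 50.2, 55.9 and 58.1 CPM in sgp53 lines 1, 2 and 3, against 42.5, 20.2 and 45.3 CPM in sgNTC lines 1, 2 and 3. Again the groups did not overlap, and the log2 fold change was 0.60 (SE 0.29, edgeR adjusted p = 0.219), or 0.32 without the sgNTC library of line 2.

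**Figure D4:**
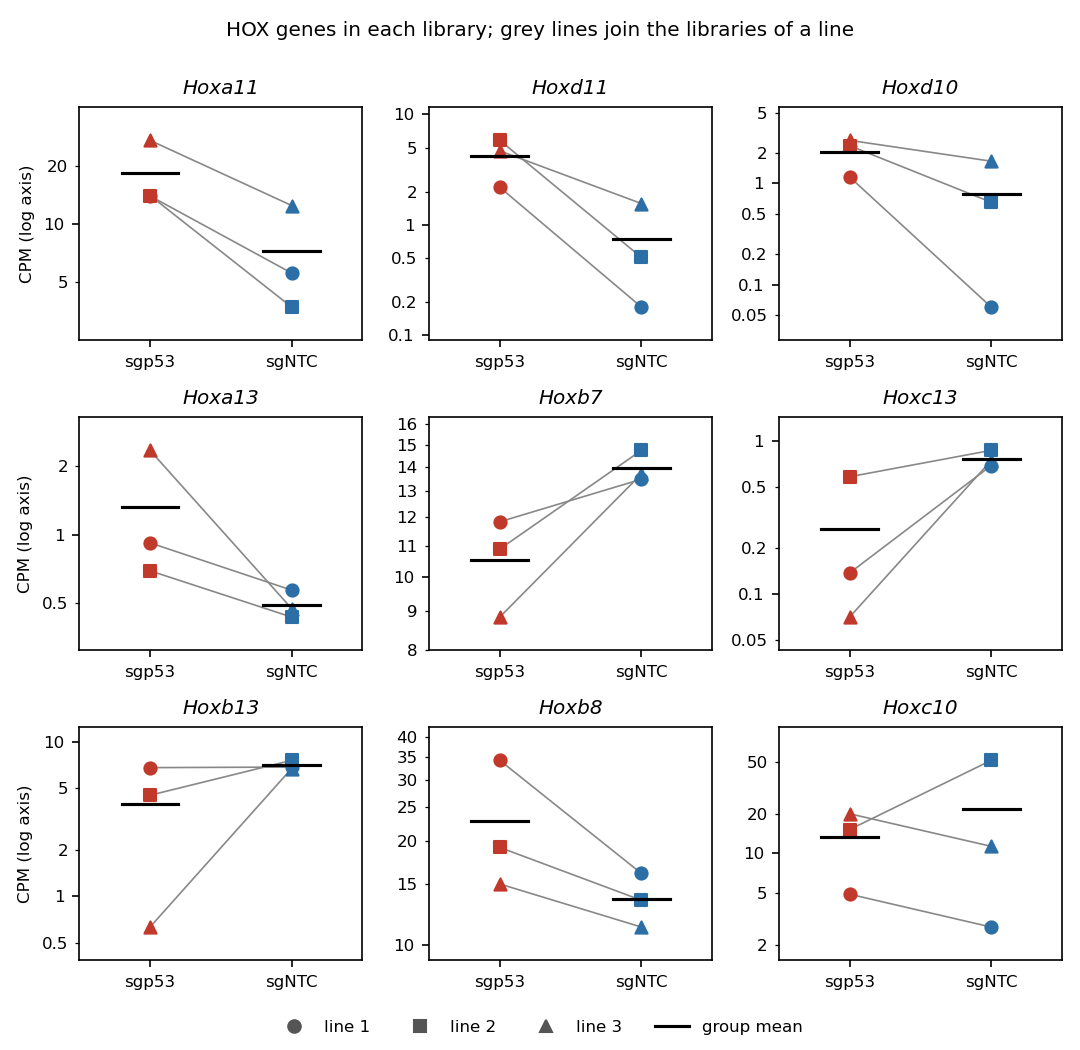
CPM (log axis) of 9 HOX genes in each library, sgp53 left and sgNTC right; symbols mark the line, grey lines join the libraries of a line and black bars are group means. Hoxa11, Hoxd11 and Hoxa13 have every sgp53 library above every sgNTC library, Hoxb7 and Hoxc13 have every one below, and Hoxc10 runs one way in lines 1 and 3 and the other way in line 2.

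At the other end of paralog number, Hoxd3 had 2.05, 1.92 and 2.46 CPM in sgp53 lines 1, 2 and 3, against 0.601, 1.78 and 1.22 CPM in sgNTC lines 1, 2 and 3. The groups did not overlap, and the log2 fold change was 0.84 (SE 0.40, edgeR adjusted p = 0.222), or 0.51 without the sgNTC library of line 1. Its exon bases are shared in part with Hoxd4 and Gm28230 on the same strand. The overlaps with each gene add up to 2613 bases, in which a base shared with both counts for each. Hoxb8, a gene whose loss in mice causes excessive grooming, had 34.2, 19.1 and 15.0 CPM in sgp53 lines 1, 2 and 3, against 16.1, 13.5 and 11.3 CPM in sgNTC lines 1, 2 and 3. The sgp53 library was the higher one in every line, while the groups overlapped across lines. The log2 fold change was 0.74 (SE 0.32, edgeR adjusted p = 0.181), or 0.33 without the sgp53 library of line 1.

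Among the genes with lower sgp53 values, Hoxb7 had 11.8, 10.9 and 8.84 CPM in sgp53 lines 1, 2 and 3, against 13.5, 14.7 and 13.7 CPM in sgNTC lines 1, 2 and 3. Every sgp53 library lay below every sgNTC library, and the log2 fold change was -0.41 (SE 0.14, edgeR adjusted p = 0.117). Hoxc13, which is needed for hair and nails, had 0.137, 0.583 and 0.0702 CPM in sgp53 lines 1, 2 and 3, against 0.691, 0.869 and 0.745 CPM in sgNTC lines 1, 2 and 3. These groups did not overlap either, at levels under 1 CPM, and the log2 fold change was -1.48 (SE 0.69, edgeR adjusted p = 0.211). Without the sgp53 library of line 2 it was -2.84 (edgeR adjusted p = 0.0515). Hoxc6, given above, was lower in the sgp53 library of each line, and the log2 fold change was -0.53 (SE 0.23, edgeR adjusted p = 0.195), or -0.31 without the sgNTC library of line 2. Hoxd8 had 12.4, 13.6 and 11.0 CPM in sgp53 lines 1, 2 and 3, against 12.2, 34.3 and 19.6 CPM in sgNTC lines 1, 2 and 3. Line 1 had near-equal values, and lines 2 and 3 had less in sgp53. The log2 fold change was -0.83 (SE 0.36, edgeR adjusted p = 0.184), or -0.36 without the sgNTC library of line 2.

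Hoxb13 and Hoxc10 each had a library far from the others. The log2 fold change of Hoxb13 was -0.82 (SE 0.70, edgeR adjusted p = 0.468), and within lines its log2 CPM in sgp53 minus sgNTC was -0.01, -0.74 and -3.28 in lines 1, 2 and 3. Its log2 fold change was -0.32 without the sgp53 library of line 3 and -1.45 without that of line 1. The log2 fold change of Hoxc10 was -0.70 (SE 1.00, edgeR adjusted p = 0.676), and within lines it was 0.82, -1.76 and 0.82 in lines 1, 2 and 3. The negative estimate of Hoxc10 rests on the sgNTC library of line 2, without which it was 0.93. It was -0.30 without the sgp53 library of line 1, -1.11 without that of line 3 and -1.23 without the sgNTC library of line 1.

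By cluster, the direction differed between the library pairs of the lines, with 1 library per guide in each. Over all genes tested the median log2 differences were -0.01, 0.00 and -0.01 in lines 1, 2 and 3. Of the 11 HOXA genes, 11, 11 and 4 were higher in the sgp53 than in the sgNTC library of lines 1, 2 and 3, with median log2 differences of 0.24, 1.23 and -0.15. For the 9 tested HOXB genes the counts were 7, 1 and 5, and the medians 0.46, -0.42 and 0.04. For the 9 HOXC genes they were 6, 3 and 4, with medians of 0.28, -0.53 and -0.04. For the 7 tested HOXD genes they were 7, 4 and 3, with medians of 0.95, 0.11 and 0.00 in lines 1, 2 and 3. HOXA is the cluster with the widest contrast between lines 2 and 3. In line 2 the sgNTC library had the lowest level of the 6 for 10 of the 11 HOXA genes. Genes of 1 cluster in the same libraries are not independent points.

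Over all 36 tested, 24 estimates of sgp53 over sgNTC were above 0 and 12 below, with a median log2 fold change of 0.22 beside -0.01 over all genes tested. The median absolute log2 fold change was 0.47 for the HOX genes and 0.19 for all genes. The difference had the same sign in all 3 lines for 14 HOX genes (38.9%), beside 52.2% of all genes tested. By paralog number it did for 2 of the 6 tested genes of groups 1 to 3 (33.3%), 4 of the 15 of groups 4 to 8 (26.7%) and 8 of the 15 of groups 9 to 13 (53.3%). No group 9 gene was among these 8, so that in groups 10 to 13, a range chosen after the values were seen, it was 8 of 11 (72.7%). Of these 8, Hoxa10, Hoxa11, Hoxa13, Hoxc11, Hoxd10 and Hoxd11 were higher in sgp53, and Hoxb13 and Hoxc13 were lower. The sign was counted however small the difference, which was -0.01 for Hoxb13 in line 1 and 0.05 for Hoxc11 in line 3. Hoxa13, Hoxc11 and Hoxc13 were under 1 CPM in most libraries. The median log2 differences within lines 1, 2 and 3 were 0.34, 0.52 and -0.07 for groups 1 to 3, 0.26, -0.32 and -0.15 for groups 4 to 8, and 0.63, 0.28 and 0.21 for groups 9 to 13. Without group 9 the last 3 were 0.66, 0.60 and 0.36.

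**Figure D5:**
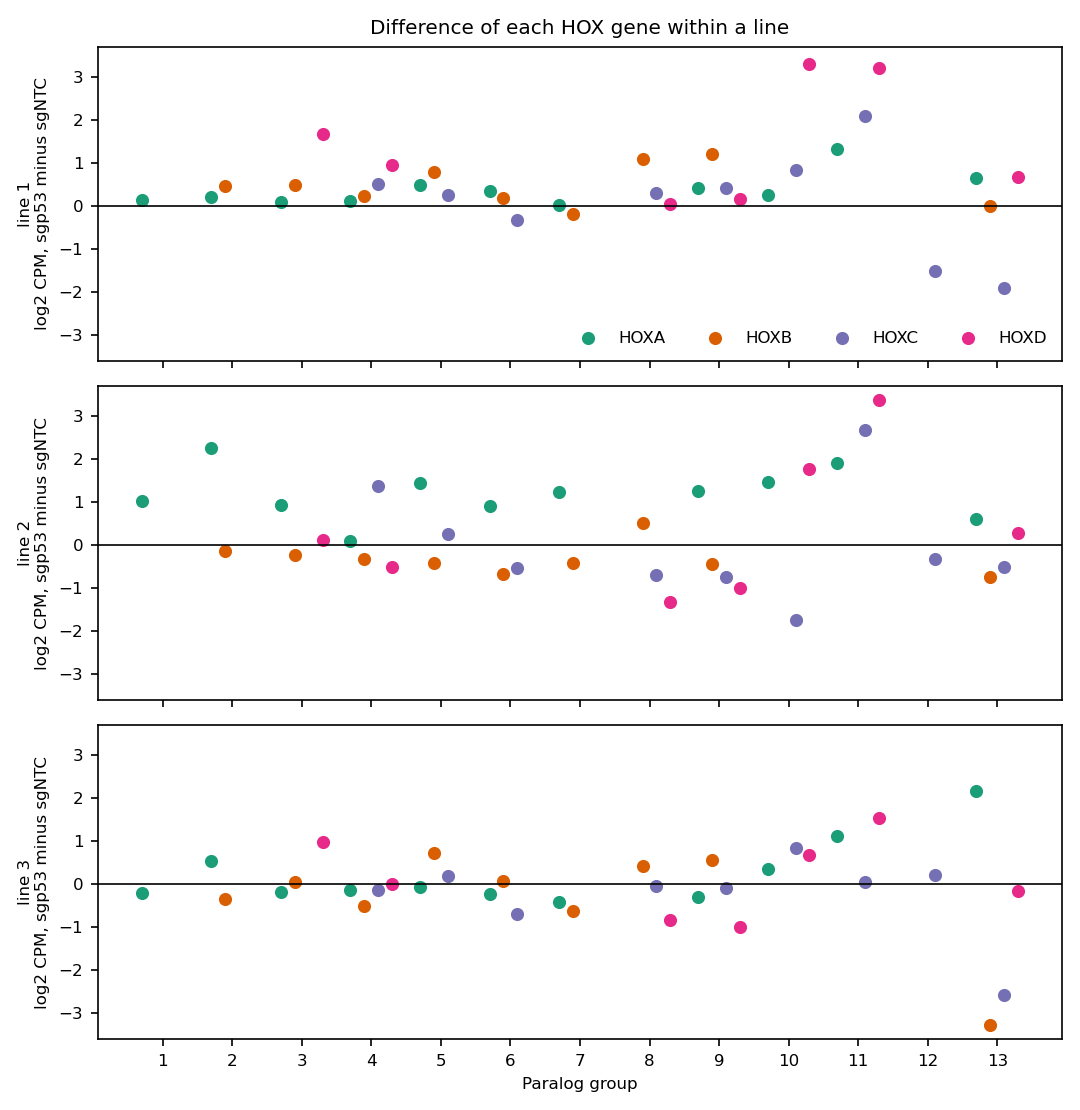
Difference in log2 CPM, sgp53 minus sgNTC (vertical axis), of each tested HOX gene within line 1, 2 and 3 (panels), by paralog group (horizontal axis) and cluster (colour). The group 11 genes lie above 0 in all 3 panels, HOXA lies above 0 throughout in lines 1 and 2, and Hoxb13 lies far below 0 in line 3 only.

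None of the 11 TALE cofactors passed the edgeR test, beside 6.45% of all genes tested, and their median log2 fold change was 0.01. At an unadjusted p under 0.05 the count was 5, beside 29% of all genes, while DESeq2 called 2, beside 17.2%, and limma-voom called 0, beside 5.35%. Pknox2, a homeodomain gene of the TALE class, had 3.89, 2.56 and 4.70 CPM in sgp53 lines 1, 2 and 3, against 1.26, 0.145 and 0.169 CPM in sgNTC lines 1, 2 and 3. Each sgp53 library lay above every sgNTC library, and the log2 fold change was 2.78 (SE 0.81, edgeR adjusted p = 0.0876). Tgif1, a repressor of the TALE class, had 59.4, 57.9 and 64.6 CPM in sgp53 lines 1, 2 and 3, against 56.1, 38.6 and 43.6 CPM in sgNTC lines 1, 2 and 3. The groups did not overlap, and the log2 fold change was 0.39 (SE 0.14, edgeR adjusted p = 0.129).

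Of 25 Polycomb genes 1 fell, beside 3.69% of all genes tested, and the list's median log2 fold change was -0.10. At an unadjusted p under 0.05 in edgeR the count was 10, in both directions, beside 29% of all genes. DESeq2 called 2, beside 17.2%, and limma-voom called 1, beside 5.35%. Pcgf3, which encodes a RING-finger subunit of a Polycomb repressive complex, had 104, 104 and 95.1 CPM in sgp53 lines 1, 2 and 3, against 126, 131 and 125 CPM in sgNTC lines 1, 2 and 3. The groups did not overlap, and the log2 fold change was -0.33 (SE 0.06, edgeR adjusted p = 0.0286). With line as a block the adjusted p was 0.0711, and without any 1 library it was between 0.0523 and 0.104. Ezh2, the methyltransferase of the other Polycomb complex, had 112 to 134 CPM in sgp53 libraries and 136 to 143 CPM in sgNTC libraries. Its log2 fold change was -0.20 (SE 0.08, edgeR adjusted p = 0.151).

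Of 20 tested Trithorax genes and HOX activators, edgeR called 0, beside 6.45% of all genes, and their median log2 fold change was 0.03. At an unadjusted p under 0.05 the count was 6, beside 29% of all genes, while DESeq2 called 5, beside 17.2%, and limma-voom called 0, beside 5.35%. Psip1, a chromatin reader that tethers MLL, had 321 to 357 CPM in sgp53 libraries and 290 to 367 CPM in sgNTC libraries, and Aff4, of the elongation complex, had 280 to 305 CPM in sgp53 libraries and 284 to 294 CPM in sgNTC libraries. Both overlapped between groups. With line as a block 1 gene was called, beside 2.38% of all genes in either direction and 0.966% upward. This was Rarb, a retinoic acid receptor that is itself induced by retinoic acid (edgeR adjusted p = 0.0425 with the block). Rarb had 2.01, 0.750 and 2.25 CPM in sgp53 lines 1, 2 and 3, against 0.210, 0.0362 and 0.305 CPM in sgNTC lines 1, 2 and 3. All sgp53 libraries lay above the sgNTC libraries, and the unblocked log2 fold change was 3.13 (SE 0.70, edgeR adjusted p = 0.0516). Cdx1, Cdx2 and Cdx4, which switch on trunk HOX genes in the embryo, were at or near 0.

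Of 13 tested noncoding RNAs and neighbours of the clusters, edgeR, DESeq2 and limma-voom called 0, beside 6.45%, 17.2% and 5.35% of all genes, and the median log2 fold change was -0.10. At an unadjusted p under 0.05 in edgeR the count was 1, beside 29% of all genes. Cbx5, beside HOXC, had 469 to 512 CPM in sgp53 libraries and 476 to 511 CPM in sgNTC libraries, and Atf2, beside HOXD, had 83.4 to 94.6 CPM in sgp53 libraries and 82.8 to 94.1 CPM in sgNTC libraries. The groups overlapped for both genes. Hotair, the noncoding RNA of HOXC, was at most 0.111 CPM in sgp53 libraries and 0.150 CPM in sgNTC libraries.

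Of 42 tested genes for other position factors, 2 rose in sgp53, beside 2.76% of all genes tested, and the median log2 fold change was 0.48. At an unadjusted p under 0.05 in edgeR the count was 10, beside 29% of all genes. DESeq2, which tested 45 of the list, called 8, beside 17.2%, and limma-voom called 1, beside 5.35%. Sim1, a factor of the hypothalamus and somites, had 1.16, 0.806 and 2.03 CPM in sgp53 lines 1, 2 and 3, against 0.180, 0.217 and 0.102 CPM in sgNTC lines 1, 2 and 3. The groups did not overlap, and the log2 fold change was 2.97 (SE 0.50, edgeR adjusted p = 0.027). Osr1, of intermediate mesoderm and limb connective tissue, had 4.81, 5.22 and 14.9 CPM in sgp53 lines 1, 2 and 3, against 1.803, 0.869 and 1.35 CPM in sgNTC lines 1, 2 and 3. Here too the groups did not overlap, and the log2 fold change was 2.62 (SE 0.54, edgeR adjusted p = 0.0434). With line as a block neither was called, at an adjusted p of 0.0792 for Sim1 and 0.0734 for Osr1. Without any 1 library Sim1 had an adjusted p of 0.0402 to 0.104 and Osr1 of 0.0557 to 0.145.

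The hindlimb factors Tbx4 and Pitx1 were high in the library that was also highest for Hoxa11 and Hoxa13 and lowest for Hoxb13. Of the 36 HOX genes tested, that library was the highest for 6 and the lowest for 9. Hoxd11 and Hoxd13 were highest in sgp53 line 2, Hoxc10 in sgNTC line 2 and Hoxb9 in sgp53 line 1. In sgp53 line 3 Tbx4 had 27.4 CPM and Pitx1 83.0 CPM, while the other 5 libraries had at most 1.76 CPM of Tbx4 and 6.13 CPM of Pitx1. Within lines 1, 2 and 3 the log2 CPM in sgp53 minus sgNTC was 2.60, 1.57 and 3.91 for Tbx4. It was 2.86, 1.38 and 3.75 for Pitx1, and 2.12, 4.49 and 0.78 for Tbx5 of the same list. The edgeR adjusted p was 0.202 for Tbx4 and 0.239 for Pitx1, or 0.0522 and 0.0766 with line as a block. The sgp53 library of line 3 also stood apart in Rn45s, Thy1, Pdgfra and S100a4, whose part in these values was not tested.

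The genes most like the posterior HOX genes over the libraries were looked up by Pearson correlation. It set log2 CPM against the log2 of the summed CPM of paralog groups 9 to 13. The search ran over the 13044 genes tested, with the HOX genes left out, so the closest are the extremes of many. Over 6 libraries the closest were Prrt3 (r = 0.991), Sephs2 (r = 0.988), Pdzrn3 (r = 0.978), 1700024P16Rik (r = 0.977) and Lingo3 (r = 0.976), and 61 genes passed 0.9. The sum itself was 275, 276 and 231 CPM in sgp53 lines 1, 2 and 3, against 161, 292 and 191 CPM in sgNTC lines 1, 2 and 3. Of it Hoxb9 gave 138, 95.8 and 59.4 CPM in sgp53 lines 1, 2 and 3 and 60.0, 130 and 40.3 CPM in sgNTC lines 1, 2 and 3. This gene thus weighs heavily in the sum. All the points share 6 libraries, so the values describe likeness only.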

How the data were processed

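The authors deposited 1 table of raw read counts per gene symbol, with a column for each of the 6 libraries and no normalization, as its values show. Per the labels' protocols, 1 µg of total RNA with an integrity number above 8.0 went into each library, and the TruSeq kits named include a stranded one. Per the submitters' processing notes, CASAVA 1.8, STAR, DESeq2 and the build mm10 were used; which program counted reads, on which annotation and on which strand are not stated in the sources used here. Symbols were taken as the table gives them, so that reads shared by overlapping or similar genes may be split in an unknown way.

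Counts were tested with edgeR 4.0.16 (quasi-likelihood F-test, R 4.3.3) after TMM scaling and filterByExpr, over 13044 genes, with Benjamini-Hochberg adjustment over all of them. Positive log2 fold changes mean higher in sgp53, and intervals are at 95%. The fit had 4 residual degrees of freedom. Lines were tested with the guide as a further term, over 13335 genes. DESeq2 1.42.0 and voom of limma 3.58.1 were alternatives. Differences within a line used log2 CPM with a prior count of 2. RPKM is CPM per kilobase of the longest transcript with a consensus coding sequence in GENCODE. A count of 0 was read as under 3 counts per library, which covers counting error only. The scripts were tested on simulated data. No pair of libraries of a group agreed within sampling noise, with a chi-square of at least 21.8 per degree of freedom.

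Line numbers pair the libraries, since by the labels equal numbers mean the same cell line. Over all genes, deviations from group means correlated at 0.089, 0.0018 and -0.027 in lines 1, 2 and 3. The fit with line as a block had 2 residual degrees of freedom. P-values measure the spread between these libraries, which may be in part technical.

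The members and gene lists were chosen with earlier results of these data known. Values per library were to be given for HOX genes called between sgp53 and sgNTC, up to 12 of smallest p between lines, and those of highest and lowest nonzero mean in each cluster. Of the other lists, called genes were to be named, or the 2 of highest mean where none was called. Hoxb7, Hoxb13, Hoxc11, Hoxd3, Hoxd8, Hoxd10, Hoxd11, Hoxd12, Hoxa5, Pknox2, Rarb, Ezh2, Thy1, Pdgfra, S100a4, Fn1, Epcam, Cdh1, Krt8, Rn45s, Hotair, Hoxa11as, Tbx4, Tbx5, Pitx1 and the Cdx genes were named outside this rule, after their values were seen. Of the list genes, 1 covered by the rule is not reported here.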

Additional observations from a re-analysis of the deposited data

Results flagged for a closer look

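The differences of 2 HOX genes between sgp53 and sgNTC ran in opposite directions in different lines, by over 0.5 on the log2 scale each way and with at least 30 counts in 1 library. Hoxc10 was higher by 0.82 in log2 CPM in the sgp53 than in the sgNTC library of line 3, and its difference was -1.76 in line 2. Hoxd4 was higher by 0.95 in the sgp53 library of line 1, and its difference was -0.51 in line 2. With 1 library per guide in a line, the difference between lines was not tested.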

How the results depend on the processing

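The count of HOX genes called between sgp53 and sgNTC was 0 in edgeR and under 16 alternatives, 1 with line as a replicate block (Hoxa11) and 2 with DESeq2 (Hoxa11 and Hoxd11). Between lines it was 0, and 3 with DESeq2. TALE cofactors went to 2 with DESeq2, and ranged from 0 to 2 when 1 replicate was left out. Polycomb genes went to 0 with the replicate block and 2 with DESeq2, and were 0 without any replicate, in the blocked fits too. Trithorax genes and activators went to 1 with the replicate block, 1 with RLE scaling (Rara) and 5 with DESeq2. Other position factors went to 1 with the replicate block (Pax1), beside 2.38% of all genes in either direction. They went to 8 of 45 with DESeq2, beside 17.2%, and to 1 with limma-voom, beside 5.35%. When a replicate was left out they ranged from 0 to 1. Estimates of Hoxc10 with 1 library or 1 line left out ranged from -1.425 to 0.93, against -0.70 with all libraries. Its estimate turned positive with limma-voom (0.0913), without sgNTC replicate 2 (0.93), without replicate 2 in both groups (0.84) and without it in the blocked fit (0.84). With 1 library or 1 line left out, estimates of Hoxa11 ranged from 0.95 to 1.97 and those of Hoxd11 from 2.00 to 3.63. Blocked fits that left out a line were chosen after seeing the data. Without lines 1, 2 and 3 they called 126, 0 and 13 of all genes, and the unblocked fits called 47, 64 and 19. The causes of these moves were not tested. Fewer libraries leave fewer degrees of freedom. The replicate block changed no other call among the HOX genes. Detection counts stayed within 1.5 times at 0.5 CPM, 5 CPM, 10 counts or library totals alone. Over all genes tested, the scalings kept the median log2 fold change between -0.05 and 0.00. Genes near 1 CPM or below rest on few counts.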
